A study of Bos taurus with 12 samples.

Results

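A set of 9 named genes of fatty acid oxidation and of the response to PPARs was followed while intramuscular preadipocytes of cattle were induced to become fat cells. The genes are CPT1A, CPT1B, CPT2, ACADVL, ACADM, HADHA, HADHB, SCP2 and ANGPTL4, and were found by name among the 33714 mRNA rows of the series. All 9 were present, 7 of them in a row of their own. CPT1B shared a row with its neighbour CHKB and SCP2 shared a row with its neighbour LOC100297152, so that these values belong to both names. For SCP2 and CPT2 the circular RNAs (circRNAs) assigned to the same host gene were added, 7 and 1 of 14070 circRNA rows.

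By the methods the preadipocytes, which can mature into fat cells, were isolated from longissimus dorsi of Qinchuan cattle just after birth, and the labels call them intramuscular adipocytes. All cultures were kept in medium with 15% serum. The 0 d group was not induced, and induction began at 90% confluence with 0.5 mM IBMX, dexamethasone and insulin by the labels. The labels and the methods give different doses of insulin and of dexamethasone, so that neither dose is stated here. After 48 hours insulin alone was given, so that the 3 d, 6 d and 9 d groups were all collected after IBMX and dexamethasone had been withdrawn. Each day had 3 libraries, 12 in all. The methods call the 3 libraries biological replicates without saying whether they came from separate animals, and the paper also speaks of cells of a single batch. Whether the libraries are independent is not known, and p-values measure the spread between these libraries.

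Long-chain fatty acids enter mitochondria as carnitine esters. CPT1 on the outer membrane makes the ester, SLC25A20 carries it across the inner membrane and CPT2 turns it back into an acyl-CoA. Inside, ACADVL and ACADM start each round of beta-oxidation on very long and medium chains, and HADHA and HADHB together form the trifunctional protein that completes it for long chains. Peroxisomes shorten other chains, and SCP2 encodes a peroxisomal thiolase and a lipid transfer protein. PPARs are nuclear receptors activated by fatty acids, and ANGPTL4, a secreted inhibitor of lipoprotein lipase, is among their known targets.

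Expression is given as FPKM, fragments scaled for transcript length and library size. FPKM carry no counts, so the depth behind a single value is unknown. The 9 genes held 0.207% to 0.219% of a library's summed FPKM before induction, 0.453% to 0.471% on day 3, 0.104% to 0.113% on day 6 and 0.111% to 0.118% on day 9. Fold changes are differences of log2(FPKM + 0.1) from limma, fitted to the 15402 mRNAs with a mean of at least 0.1 FPKM. A gene was called when its log2 fold change exceeded 1 in size and its Benjamini-Hochberg adjusted p was under 0.05. All 9 genes passed the filter. SCP2 ranked at place 101 and CPT1A at place 200 of the 15402 by mean FPKM, while ACADM (3.97 FPKM) and ANGPTL4 (4.24 FPKM) lay near the middle. The FPKM of CPT1A and SCP2 are unexpectedly high for enzymes of this kind, are given as deposited and were not checked by another measurement, which also bears on the shares above and on the ratio of CPT1A to CPT2 below.

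At 3 d, 5 of the 9 genes were called higher than on day 0 (SCP2, ANGPTL4, CPT2, HADHB and ACADM), against 8.06% of all tested mRNAs. CPT1B was called lower, against 15.2% of all tested mRNAs. The median log2 fold change was 1.21 over the 9 genes and -0.06 over all tested mRNAs. From 3 d to 6 d, 5 genes were called lower (CPT1A, SCP2, ANGPTL4, CPT2 and HADHB), against 9.23%, and 0 were called higher, against 9.85%. At 6 d vs. 0 d ACADM was called higher, against 3.39% of all tested mRNAs, and CPT1A lower, against 7.97%. At 9 d vs. 0 d ANGPTL4 was called higher, against 3.41%, and CPT1A lower, against 7.47%. Between 6 d and 9 d limma called 0 of the 9, where 2.55% of all tested mRNAs were called higher and 1.89% lower, and 2 of the 9 had an unadjusted p under 0.05. The comparisons share libraries and are not independent of each other. The shares of calls given here also stand beside the counts of the gene lists below. Over all tested mRNAs, limma gave an adjusted p under 0.05 to 52.2% at 3 d, 34.8% at 6 d and 36.8% at 9 d vs. 0 d. This share was 49.5% from 3 d to 6 d and 20.7% from 6 d to 9 d. Counts by unadjusted p are to be read beside these shares. In such cultures fewer cells of a type and less RNA per cell cannot be told apart.

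The label was checked against 10 adipocyte markers. Of these, 5 were called higher and 1 lower on day 3, 5 and 0 at 6 d vs. 0 d, 5 and 0 at 9 d vs. 0 d, 1 and 3 from 3 d to 6 d, and 1 and 1 from 6 d to 9 d. ADIPOQ reached at most 1.64 FPKM in any library and CEBPA at most 0.26 FPKM. The most abundant by mean was FABP4 on day 3 and PLIN1, in a row shared with PEX11A and not called in any comparison, on the other days. The summed FPKM was 51.4, 59.2 and 59.5 on day 0, 190, 196 and 201 on day 3, 98.5, 107 and 111 on day 6 and 97.1, 80.3 and 95.8 on day 9. LEP had 2.34 ± 0.155 FPKM on day 0, 0, 0 and 0.21 FPKM in the 3 d libraries and 20.5 ± 4.43 FPKM on day 9.

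**Figure D1:**
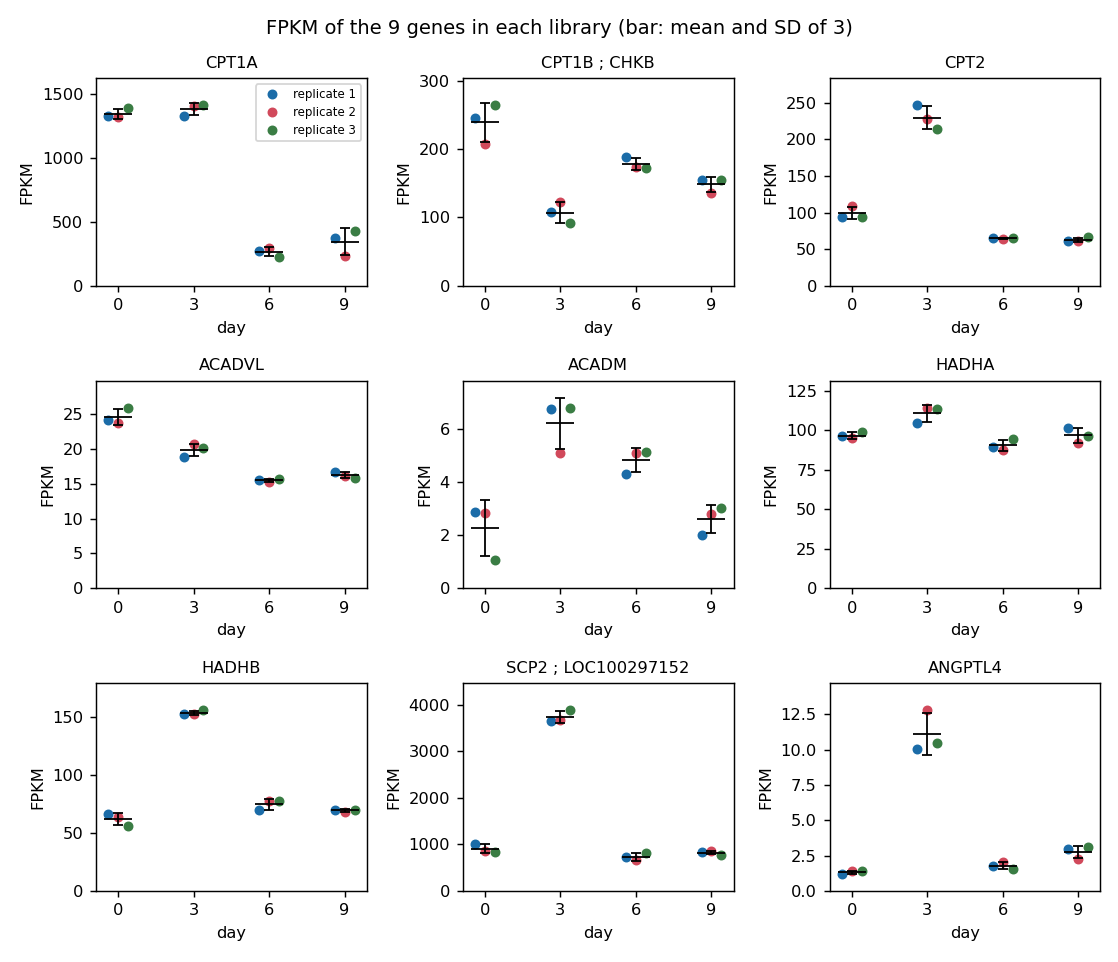
FPKM (vertical axis, from 0) of each gene in the 12 libraries by day (horizontal axis); points are libraries, the bar is the mean and the whiskers are the SD of 3. SCP2, CPT2, HADHB and ANGPTL4 peak on day 3, whereas CPT1A has a mean of 1349.9 FPKM on day 0, 1384.5 FPKM on day 3 and 266 FPKM on day 6.

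The carnitine enzymes had different courses, and the differences between their courses were not tested. CPT1A, the form of the enzyme known from liver and many other tissues, had 1332, 1323 and 1395 FPKM in the 0 d libraries and 1331, 1409.5 and 1413 FPKM on day 3. The libraries of these days overlapped, and the log2 fold change was 0.04 (95% interval -0.39 to 0.46, limma adjusted p = 0.891). The 6 d libraries had 276, 295 and 228 FPKM and the 9 d libraries 374, 234 and 434 FPKM, all below every library of 0 d and 3 d. From 3 d to 6 d CPT1A fell by 2.39 log2 units (SE 0.189, limma adjusted p = 3.57e-06). It was 5.09-fold lower on day 6 and 4.01-fold lower on day 9 than on day 0 (limma adjusted p = 7.46e-06 and 2.63e-05), and 9 d and 6 d overlapped.

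CPT1B is the form known from muscle. The row it shares with CHKB, an enzyme of phospholipid synthesis, had 246, 207 and 264 FPKM on day 0 and 107, 122 and 91.55 FPKM on day 3. The 3 d libraries were the lowest of the series for this row, and the row was 2.23-fold lower than on day 0 (log2 -1.16, SE 0.118, limma adjusted p = 1.66e-05). At 6 d the libraries had 188, 174 and 172 FPKM and on day 9 154, 136 and 155 FPKM, above every 3 d library and below every 0 d library. The differences from 0 d were -0.42 and -0.68 on the log2 scale and did not reach the fold threshold.

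Skeletal muscle markers were also present. Of 12 markers, 11 were matched and tested (PAX7 was not matched), and 0 were called higher and 9 lower on day 3, where MYF5 and MYH8, named after their values were seen, were not called (log2 -0.37 and -0.13). MYH8 had 1.49 ± 0.278 FPKM on day 0 and 2.63 ± 0.225 FPKM on day 6 (log2 0.79, limma adjusted p = 0.00208), under the fold threshold. The markers' summed FPKM was 1242, 1278 and 1287 in the 0 d libraries, 317, 353 and 329.9 on day 3, 471, 454 and 504 on day 6 and 471, 450.4 and 474 on day 9. DES, the most abundant of them on each day, went from 393 ± 24.4 FPKM (SD, n = 3) on day 0 to 138 ± 11.3 FPKM on day 3, and CKM from 133 ± 2.72 to 3.28 ± 1.54 FPKM. The part of this marker change in the lower CPT1B row was not tested.

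CPT2, on the inner membrane, had 94.1, 109 and 94.3 FPKM on day 0 and 246, 227 and 215 FPKM on day 3. Every 3 d library was above every other library of the series, and the rise was 2.31-fold (log2 1.21, SE 0.0731, limma adjusted p = 3.51e-07). The 6 d libraries (65.2, 64.2 and 64.8 FPKM) and the 9 d libraries (61.3, 61.2 and 66.2 FPKM) lay below every 0 d library. Between day 3 and day 6 CPT2 fell by 1.82 log2 units (limma adjusted p = 2.63e-08). Its differences from 0 d on days 6 and 9 (log2 -0.61 and -0.65) were under the fold threshold. The ratio of CPT1A to CPT2 FPKM was 13.7 ± 1.39 (SD, n = 3) on day 0, 6.06 ± 0.602 on day 3, 4.12 ± 0.542 on day 6 and 5.49 ± 1.46 on day 9.

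SLC25A20, the carrier between both enzymes, was also highest on day 3. Its row, which is shared with LOC112443526, had 3.77, 3.92 and 4.62 FPKM on day 0 in increasing order and 23.1, 24.7 and 27.1 FPKM on day 3. It rose by 2.58 log2 units (limma adjusted p = 1.81e-07) and was back at 4.25 ± 0.157 FPKM on day 6.

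Malonyl-CoA, made by acetyl-CoA carboxylases, inhibits CPT1, and AMP-activated kinase restrains these carboxylases. Of 10 genes of this control, 1 was called higher and 3 lower on day 3, against 8.06% and 15.2% of all tested mRNAs. ACACB, the mitochondrial carboxylase, rose from 1.10 ± 0.328 FPKM on day 0 to 20.3 ± 2.13 FPKM on day 3 (log2 4.11, limma adjusted p = 1.98e-08). It had 13.8 ± 1.45 FPKM on day 6 and 2.92 FPKM on day 9. The kinase subunits PRKAB2, PRKAG2 and PRKAA2 were called lower on day 3 (log2 -1.35, -1.33 and -1.197). In 6 d vs. 0 d 1 gene was called higher and 1 lower, in 9 d vs. 0 d 1 and 3, in 6 d vs. 3 d 1 and 0, and in 9 d vs. 6 d 0 and 1. After rescaling of the libraries 1 gene was called lower in 9 d vs. 0 d.

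Of the acyl-CoA dehydrogenases, ACADVL had a higher mean (19.1 FPKM) than ACADM. ACADVL had 24.2, 23.7 and 25.9 FPKM on day 0, 18.9, 20.65 and 20.1 FPKM on day 3, 15.6, 15.3 and 15.75 FPKM on day 6 and 16.7, 16.2 and 15.85 FPKM on day 9. Every library after induction was below every 0 d library, but the largest difference (log2 -0.66 on day 6, limma adjusted p = 1.59e-05) was under the fold threshold. ACADM had 2.88, 2.85 and 1.06 FPKM on day 0, 6.73, 5.08 and 6.78 FPKM on day 3, 4.30, 5.08 and 5.11 FPKM on day 6 and 2.0, 2.80 and 3.01 FPKM on day 9. The third 0 d library was low, and the 3 d and 6 d libraries lay above all those of 0 d and 9 d. ACADM rose by 1.53 on day 3 and 1.18 on day 6 on the log2 scale (SE 0.331 for both, limma adjusted p = 0.00303 and 0.0192). The call on day 6 ended without the third 0 d library (log2 0.73), without the second or the third 6 d library (limma adjusted p = 0.0555 and 0.0556), with a pseudocount of 1 (log2 0.89) and in a fit of the 6 libraries compared (limma adjusted p = 0.0701). The adjusted p from limma ran from 0.00962 to 0.0701 over its 20 alternatives.

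HADHB and HADHA are neighbours in the RefSeq gene order (ARS-UCD2.0) and encode the beta and alpha subunits of a single complex, yet only HADHB was called on day 3. HADHB had 66.5, 63.5 and 56.2 FPKM on day 0 and 153, 153 and 156 FPKM on day 3. Every 3 d library was above every other library, and the rise was 2.48-fold (log2 1.31, SE 0.0695, limma adjusted p = 1.32e-07). The 6 d libraries had 69.5, 78.0 and 77.3 FPKM and the 9 d libraries 69.9, 68.3 and 70.2 FPKM. After day 3 HADHB fell by 1.04 log2 units to day 6 (limma adjusted p = 1.01e-06), close to the fold threshold. Rescaling by the median ratio (-0.95) or leaving out the first 6 d library (-0.99) ended that call.

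HADHA had 96.1, 94.8 and 98.9 FPKM on day 0 and 105, 114 and 113.5 FPKM on day 3. Every 3 d library was above every other library here too, but the log2 fold change from 0 d was 0.20 (95% interval 0.07 to 0.32, limma adjusted p = 0.0154). To day 6 HADHA fell by 0.29 log2 units (limma adjusted p = 0.00185), under the fold threshold. The 6 d libraries had 89.3, 87.4 and 94.5 FPKM and the 9 d libraries 101, 92.2 and 96.6 FPKM. The ratio of HADHB to HADHA FPKM was 0.568 to 0.692 in the 0 d libraries, 1.34 to 1.46 on day 3, 0.778 to 0.893 on day 6 and 0.689 to 0.741 on day 9. HADHB exceeded HADHA in the 3 libraries of 3 d and in none of the other 9. The difference between the changes of both genes was not tested.

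A list of 22 other genes was written for mitochondrial beta-oxidation, and not all of them belong to it alone, as with AUH below. Limma called 4 of them higher and 0 lower on day 3 (16 had an unadjusted p under 0.05), with a median log2 fold change of 0.22. Besides SLC25A20 these were ECI1, an isomerase for unsaturated chains (17.9 ± 1.43 to 58.4 ± 4.23 FPKM, log2 1.70), ACAD9 (13.1 ± 1.71 to 36.2 ± 1.67 FPKM, log2 1.47) and ACAD8. ECI1 was also called higher at 6 d and 9 d vs. 0 d (log2 1.154 and 1.01), where 0 genes were called lower. From 3 d to 6 d SLC25A20 was called lower and 0 genes higher, and between 6 d and 9 d limma called 0 (9 had an unadjusted p under 0.05). HADH, the dehydrogenase for shorter chains, had 11.9 ± 0.372 FPKM on day 0, 14.5 ± 0.0666 on day 3, 10.99 ± 0.800 on day 6 and 9.52 ± 0.170 on day 9. AUH, a hydratase of leucine breakdown, had 2.40 ± 0.246, 2.82 ± 1.59, 4.32 ± 0.979 and 3.15 ± 1.55 FPKM. Neither was called.

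**Figure D2:**
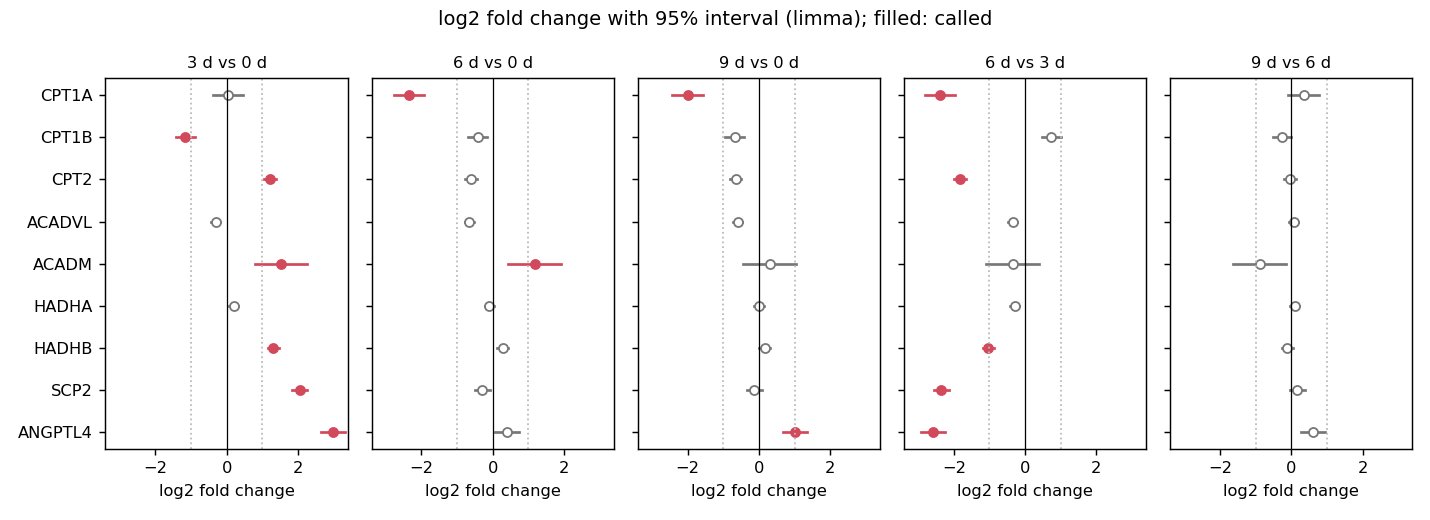
Log2 fold change (horizontal axis) of each gene in the 5 comparisons with its 95% interval from limma; filled red points are called, and dotted lines mark the fold threshold of 1. At 3 d vs. 0 d HADHB (1.31) is called and HADHA (0.20) is not, and CPT1A (-2.39) is called at 6 d vs. 3 d.

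By mean over the 12 libraries SCP2 (1548 FPKM) was the most abundant of the 9 genes, while CPT1A was above it in every 0 d library. The row it shares with LOC100297152 had 1013, 858 and 832 FPKM on day 0 and 3654, 3683 and 3880.5 FPKM on day 3. Every 3 d library was above every other library of the series. The row rose 4.17-fold (log2 2.06, SE 0.0936, limma adjusted p = 4.42e-08). The 6 d libraries had 723, 652 and 822 FPKM and the 9 d libraries 827, 853 and 781 FPKM. To day 6 SCP2 fell by 2.36 log2 units (limma adjusted p = 2.47e-08). At 9 d it overlapped with 0 d (log2 -0.13, 95% interval -0.34 to 0.08, and 0.08 after rescaling of the libraries). The 3 mRNAs whose log2 FPKM were most like SCP2 over the 12 libraries were CAPN11 (Pearson r = 0.995), LOC101905228 (r = 0.990) and LAMA2 (r = 0.988), given as a description.

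Of 17 other peroxisomal genes, 16 were tested (ABCD2 was listed at 0 in every library), and 0 were called higher and 2 lower on day 3, with a median of -0.14 and with 9 at an unadjusted p under 0.05. The lower genes were ACOX2 (10.5 ± 0.916 to 3.25 ± 0.762 FPKM, log2 -1.68) and PHYH (3.20 ± 0.295 to 1.39 ± 0.0666 FPKM, log2 -1.14). From 3 d to 6 d ACOX2, PHYH and CROT were called higher (1.09, 1.40 and 1.34). At 6 d vs. 0 d CROT was called higher (1.37), and CAT (-1.15) and HACL1 (-1.13) lower. At 9 d AMACR was called higher (1.45) and CAT (-1.01) and HACL1 (-1.004) lower. After rescaling of the libraries 0 of these genes were called lower on days 6 or 9, and 2 were called higher at 9 d vs. 0 d. Between 6 d and 9 d limma called 0 (5 had an unadjusted p under 0.05).

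The SCP2 locus also gave circular RNAs, which join the end of an exon back to the start of an upstream one and are counted by reads across that back-splice. The uninduced libraries held between 6564 and 8113 back-spliced reads over all hosts, those of day 3 between 7163 and 8583, those of day 6 between 5358 and 7954 and those of day 9 between 9686 and 10729. SCP2 had 148 of these reads in 7 rows. Of the rows, 5 had 1 to 4 reads each. The other 2 were circRNA4383, from 93341091 to 93365353 on the minus strand of chromosome 3, and circRNA3406, from 93341092 to 93365353 (positions as deposited, on ARS-UCD1.2 by the methods). Both were listed with 5 exons, and their starts differ by 1 bp.

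The reads of a library lay in either row but never in both. circRNA4383 had 0, 0 and 6 reads on day 0, 28, 25 and 20 on day 3, 0, 5 and 0 on day 6 and 7, 13 and 0 on day 9. circRNA3406 had 0, 3 and 0 reads on day 0, 0, 0 and 0 on day 3, 12, 0 and 10 on day 6 and 0, 0 and 7 on day 9. Of the 11 libraries with reads, 7 had them in circRNA4383 and 4 in circRNA3406. For 6 d vs. 3 d edgeR called both rows, in opposite directions: circRNA4383 lower (log2 -3.32, adjusted p = 0.0168) and circRNA3406 higher (adjusted p = 0.0347). Summed, the rows had 73 reads on day 3 and 27 on day 6, and were not called (log2 -1.11, edgeR adjusted p = 0.616), where 0.362% of summed rows were called.

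At 3 d vs. 0 d the sums were called. Both rows together had 0, 3 and 6 reads on day 0 and 28, 25 and 20 on day 3, without overlap (log2 2.83, edgeR adjusted p = 0.00692; 0.615% of 2766 summed rows were called). Over all 7 rows SCP2 had 1, 4 and 6 reads on day 0, 33, 28 and 20 on day 3, 12, 5 and 10 on day 6 and 7, 15 and 7 on day 9. This sum was called at 3 d vs. 0 d (log2 2.59, edgeR adjusted p = 0.000427), where 0.758% of 2112 host sums were called. As SRPBM, the reads scaled for each library, the sum was 56.0 ± 35.8 (SD, n = 3) on day 0, 397 ± 146 on day 3, 157 ± 69.1 on day 6 and 160.3 ± 90.5 on day 9. The sums on days 6 and 9 differed from 0 d by 1.33 and 1.10 on the log2 scale and were not called (edgeR adjusted p = 0.681 and 0.668). The mRNA row differed by -0.30 and -0.13 in the same comparisons.

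CPT2 had a single row, circRNA5749, of 2 exons from 93033269 to 93035912 on the minus strand of chromosome 3. It had 0, 0 and 0 reads on day 0, 7, 6 and 4 on day 3, 2, 2 and 3 on day 6 and 0, 5 and 0 on day 9. Every 3 d library had more reads than every 0 d library, and 3 d was at least 5.14-fold higher against a floor of 3 counts over the 0 d group, which covers counting error only. As a host sum it was not called (edgeR adjusted p = 0.119).

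Of the 8 rows of both hosts, 3 had the 5 reads needed for a test. By row 1 was called at 3 d vs. 0 d (circRNA4383), 2 from 3 d to 6 d, and 0 at 6 d vs. 0 d, at 9 d vs. 0 d and from 6 d to 9 d, against 0.813%, 0.424%, 0.53%, 0.566% and 0.389% of 2828 tested rows. In the 3 comparisons with 0 calls edgeR gave 2, 1 and 0 of the 3 rows an unadjusted p under 0.05, and DESeq2 1, 0 and 0. The call of circRNA4383 on day 3 (log2 3.38, edgeR adjusted p = 0.00629) ended without the first 0 d (0.148), the second 0 d (0.149) or the first 3 d library (0.0788) and with at least 20 counts (0.253), values being adjusted p from edgeR. Without the third 0 d library, the only one of that day with reads in this row, its log2 value was 7.54, and without the second 6 d library, likewise alone, that for 6 d vs. 3 d was -7.58, both fitted against days at 0 and no bound. Over the alternatives for 3 d vs. 0 d, DESeq2 among them, its adjusted p ran from 0.000183 to 1. For 6 d vs. 3 d both calls ended without the first or the second 3 d library or the first or the third 6 d library, and that of circRNA3406 also without the third 3 d or the third 9 d library. DESeq2 called 0 rows in every comparison, but it called the SCP2 host sum on day 3 (adjusted p = 0.0013). Host sums other than SCP2 on day 3 were not called, where 0.521% were called at 6 d vs. 0 d, 0.237% at 9 d vs. 0 d, 0.426% from 3 d to 6 d and 0.189% between 6 d and 9 d. In these 4 comparisons edgeR gave 2, 1, 1 and 0 of both host sums an unadjusted p under 0.05, and DESeq2 2, 0, 1 and 0.

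**Figure D3:**
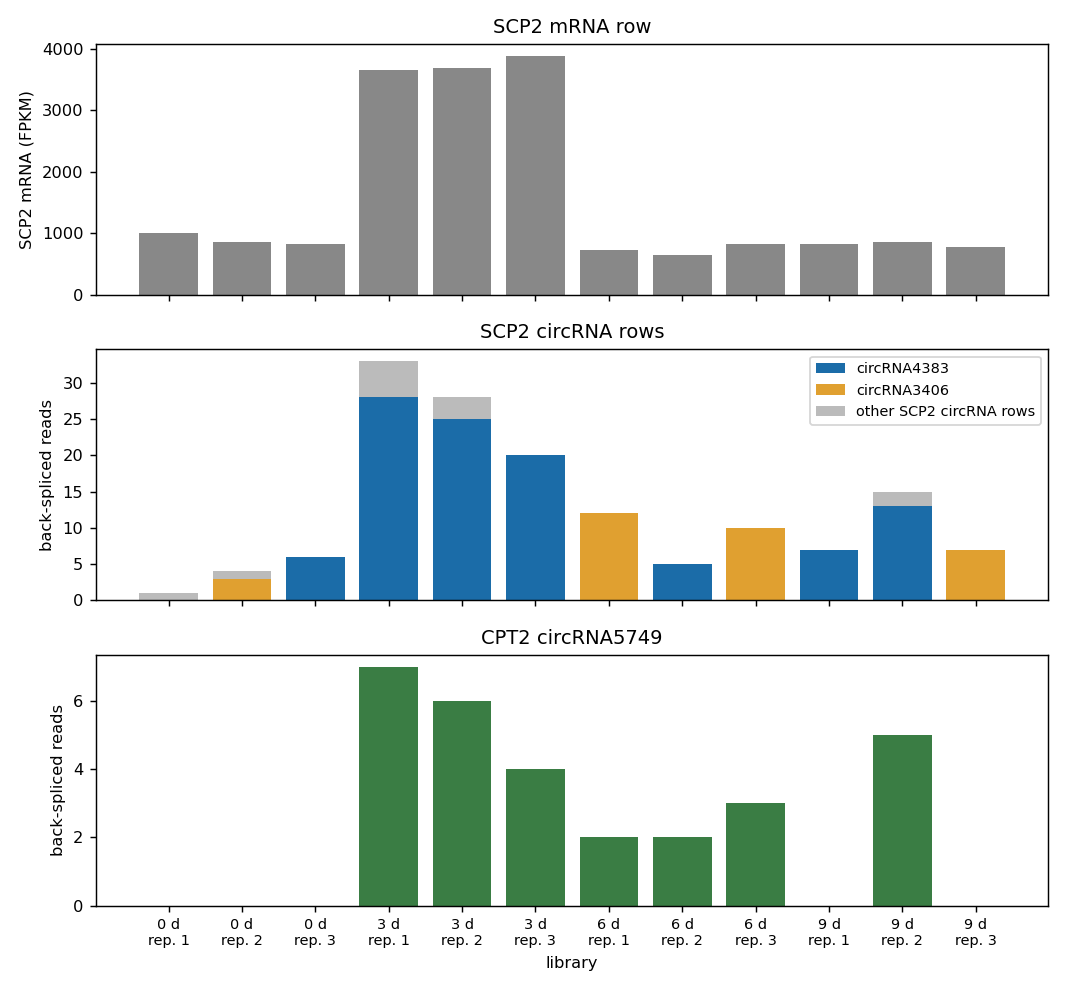
SCP2 mRNA (FPKM, top), back-spliced reads of the SCP2 circRNA rows (middle, stacked by row) and of circRNA5749 of CPT2 (bottom) in each of the 12 libraries (horizontal axis). The blue and orange rows, whose starts differ by 1 bp, never share a library, and both hosts have most reads on day 3.

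ANGPTL4 had the largest rise of the 9 genes on day 3. It had 1.19, 1.39 and 1.37 FPKM on day 0 and 10.1, 12.8 and 10.5 FPKM on day 3. Every 3 d library was above every other library (log2 2.98, SE 0.149, limma adjusted p = 8.98e-08). The 6 d libraries had 1.74, 2.04 and 1.53 FPKM and the 9 d libraries 2.94, 2.27 and 3.07 FPKM, all above those of 0 d. To day 6 ANGPTL4 fell by 2.58 log2 units (limma adjusted p = 3.59e-07). At 9 d vs. 0 d it was called with a log2 fold change of 1.00 (SE 0.149, limma adjusted p = 0.000526), at the fold threshold. A pseudocount of 1 (0.69) ended this call, as did leaving out the first 0 d (0.94), the first 9 d (0.96) or the third 9 d library (0.92). The most similar mRNAs over the 12 libraries were COL18A1 (r = 0.992), SOD2 (r = 0.988) and MMP13 (r = 0.985), the last with under 1 FPKM as a mean on every day.

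LPL, the lipase that ANGPTL4 inhibits, had 4.53 ± 0.148 FPKM on day 0, 10.6 ± 1.66 on day 3, 3.03 ± 0.197 on day 6 and 6.34 ± 1.49 on day 9, and was called on day 3 (log2 1.198, limma adjusted p = 0.000117). Of 7 genes around lipoprotein lipase, 4 were tested, with 1 called higher and 2 lower on day 3 and 2 higher and 1 lower from 3 d to 6 d. VLDLR, a lipoprotein receptor, had 276 ± 7.4 FPKM on day 0, 28.4 ± 0.803 on day 3 and 217 ± 5.70 on day 6. SEL1L, which helps lipase maturation, had 246 ± 8.68, 105 ± 2.25 and 213 ± 3.53 FPKM on the same days. From 6 d to 9 d LPL was called higher (1.02), and at 6 d and 9 d vs. 0 d limma called 0 of the 4, all with an unadjusted p under 0.05.

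Of 22 other PPAR targets, 16 were tested. At 3 d 7 were called higher and 2 lower, with a median log2 fold change of 0.90. The lower genes were VLDLR (log2 -3.28) and CIDEA (11.9 ± 0.901 to 5.81 ± 0.792 FPKM, log2 -1.03), the latter close to the fold threshold and named after its values were seen, and after rescaling of the libraries 1 gene was called lower. PDK4, a kinase that restrains pyruvate dehydrogenase, had 0.78, 0.82 and 1.22 FPKM on day 0 in increasing order and 61.05, 63.8 and 63.9 FPKM on day 3. It rose by 5.95 log2 units (limma adjusted p = 1.16e-09) and had 1.97 ± 0.254 FPKM on day 6. FABP4, a fatty acid carrier of fat cells, went from 3.30 ± 0.255 to 91.1 ± 4.42 FPKM on day 3 and had 9.07 ± 1.61 FPKM on day 9. CD36, a fatty acid transporter, had 0.307, 3.41, 1.77 and 8.07 FPKM on the 4 days, and HILPDA, in a row shared with FAM71F2, had 3.74, 8.81, 12.2 and 23.6 FPKM. PLIN4 was called higher on every later day vs. 0 d (log2 1.91, 2.36 and 2.36). Called higher and lower were 7 and 0 at 6 d vs. 0 d, 6 and 1 at 9 d vs. 0 d, 2 and 4 from 3 d to 6 d, and 2 and 2 from 6 d to 9 d.

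The receptors PPARA and PPARD were not called in any comparison. PPARA had 20.8 ± 1.25, 31.45 ± 6.09, 37.1 ± 26.1 and 17.6 ± 1.73 FPKM on 0, 3, 6 and 9 d, with 17.2 to 66.7 FPKM among the 6 d libraries. PPARD had 86.2 ± 18.2, 72.0 ± 12.6, 97.3 ± 8.86 and 64.9 ± 7.53 FPKM. Of the 12 tested genes among the PPARs, their partners and coactivators, limma called 0 in the comparisons of 3, 6 and 9 d with 0 d and of 9 d with 6 d (4, 3, 3 and 5 had an unadjusted p under 0.05). From 3 d to 6 d PPARGC1A (1.56 ± 0.120 to 0.410 ± 0.0520 FPKM, log2 -1.70) and RXRA (17.15 ± 1.10 to 8.48 ± 0.201 FPKM, log2 -1.01) were called lower, and 1 of the 2 after rescaling.

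**Figure D4:**
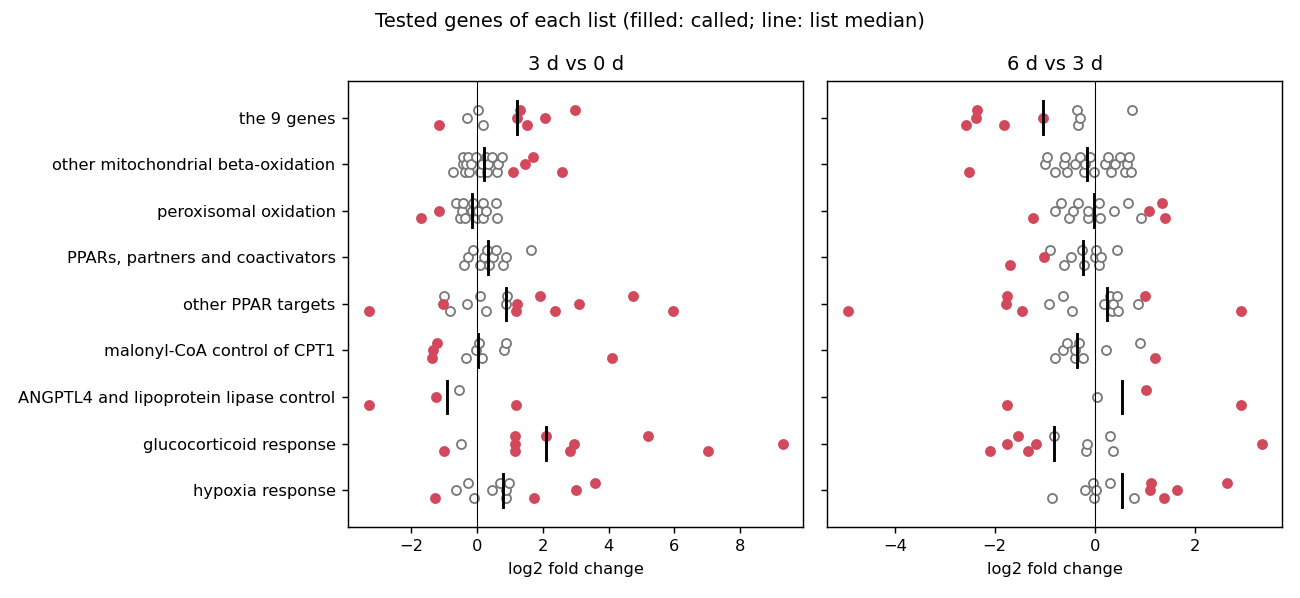
Log2 fold change (horizontal axis) of every tested gene of each list (rows) at 3 d vs. 0 d (left) and from 3 d to 6 d (right); filled red points are called and black lines are list medians. The 9 genes have a median of 1.21 on day 3 and -1.04 from 3 d to 6 d.

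Dexamethasone is a glucocorticoid. Of 11 genes that respond to glucocorticoids, 9 were called higher and 1 lower on day 3, with a median of 2.09. ZBTB16 had 0.343 ± 0.162 FPKM on day 0, 282 ± 105 on day 3, 80.2 ± 15.3 on day 6 and 12.3 ± 2.92 on day 9, FKBP5 0.423 ± 0.116, 83.2 ± 52.4, 19.6 ± 17.5 and 5.13 ± 3.16 FPKM, and MT2A 3.05 ± 0.787, 114 ± 4.63, 45.4 ± 4.79 and 11.2 ± 0.779 FPKM. ERRFI1 was the gene called lower on day 3 (-1.01) and was called higher on days 6 and 9 (2.33 and 3.20), and FAM107A was highest on day 9 (8.27 ± 0.980 FPKM). Called higher and lower were 8 and 0 at 6 d vs. 0 d, 6 and 1 at 9 d vs. 0 d, 1 and 5 from 3 d to 6 d, and 1 and 5 from 6 d to 9 d. After rescaling, 0 genes were called lower on day 3. The summed FPKM of the list, led by CEBPD, was 1558, 1518 and 1707 on day 0, 4368, 4317 and 4258 on day 3, 3508, 3759 and 3746 on day 6 and 2421, 2626 and 2705 on day 9. The part of this response in the changes of the 9 genes was not tested.

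ANGPTL4 is also known to respond to low oxygen. Of 12 hypoxia genes, 3 were called higher and 1 lower on day 3, 5 and 0 at 6 d vs. 0 d, 9 and 0 at 9 d vs. 0 d, 5 and 0 from 3 d to 6 d, and 1 and 0 from 6 d to 9 d. After rescaling of the libraries 8 were called higher at 6 d vs. 0 d. CA9 had 1.13 ± 0.121, 9.83 ± 0.938, 61.9 ± 5.82 and 57.4 ± 12.98 FPKM on the 4 days, and SLC2A1 1.36 ± 0.0971, 4.83 ± 0.539, 4.91 ± 0.578 and 4.29 ± 0.188 FPKM. NDRG1 was called lower on day 3 (-1.27). The largest changes from 0 d also included BNIP3, in a row shared with LOC104976020, on day 3 (3.58, with 3.50, 3.71 and 17.9 FPKM among the 0 d libraries in increasing order), P4HA1 on day 6 (1.97) and EGLN3 on day 9 (2.81). The summed FPKM of this list, led by LDHA, was 632, 635.5 and 617 on day 0, 1024, 987 and 1033 on day 3, 1229.7, 1308 and 1229.9 on day 6 and 1435.5, 1470.2 and 1406 on day 9. The sums were highest on day 9 and ANGPTL4 on day 3, and the part of hypoxia genes in its change was not tested.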

How the data were processed

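Groups are the days named in the sample labels, 12 libraries in all. By the methods, the authors mapped reads to ARS-UCD1.2, while the submitters' processing notes name the build mm8, with Bowtie 0.12.2, HISAT2 2.0 and StringTie 1.3.0. The labels describe poly(A) selection and the methods rRNA depletion. The deposited mRNA values are FPKM by the authors. The deposited circRNA values are a count of back-spliced reads, and SRPBM, a signal that the authors scaled for each library. Of the mRNA and circRNA tables no value column per sample was left unused (0), and the lncRNA and miRNA tables of the series were not used for this part.

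FPKM were tested with limma 3.58.1 (lmFit, eBayes with trend) and counts of at least 5 with edgeR 4.0.16 (TMM, glmQLFit, glmQLFTest), each in 1 fit of the 12 libraries with 1 mean per day. DESeq2 1.42.0 was an alternative. R 4.3.3, Python 3.11.15, NumPy 2.4.6, pandas 2.3.3 and Matplotlib 3.10.9 were used, and the fits were tested on simulated data. The 5 comparisons were 3, 6 and 9 d vs. 0 d, 6 d vs. 3 d and 9 d vs. 6 d.

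The members and lists were chosen with earlier results of these data known. Named were the 9 genes, the circRNA rows with at least 10 reads, up to 3 called genes with the largest change per list and comparison, and some chosen by name whatever their values, among them PPARA, PPARD, PDK4, SLC25A20, ACACB, AUH, HADH and LPL. Not every gene under this rule is described. Other genes named, such as ACAD8, CAPN11 among the 3 most similar mRNAs and the cell type markers, serve as description. Where several rows carried a name, the row with the highest mean was taken. Lists covered 8 pathways or responses and 6 cell types or states. Alternatives were other pseudocounts and filters, rescaling, other fits and leaving out each library.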

Additional observations from a re-analysis of the deposited data

How the results depend on the processing

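Of 900 alternative values of the 9 genes' log2 fold changes, 883 kept their direction and side of the threshold, 11 changed sides and 6 changed sign, none of the 6 in a called comparison. The calls of SCP2, CPT2, HADHB, ANGPTL4, CPT1B and ACADM on day 3 held under all 20 alternatives. At 6 d vs. 0 d the number of called genes went from 2 to 1 with a pseudocount of 1 and in a fit of only the 6 libraries compared (1), and was 1 to 2 when libraries were left out. At 9 d vs. 0 d it went from 2 to 1 with a pseudocount of 1, and was 1 to 2 when libraries were left out. Other list genes called on day 9 numbered 19 with a pseudocount of 1, in place of 31. Signs changed for HADHA on day 6 (0.0743) and SCP2 on day 9 (0.0776) after rescaling. Leaving out libraries moved ACADM on day 9 from -0.15 to 0.53 and HADHA on day 9 from -0.0332 to 0.0359. The cause was not tested.

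Rescaling by the median ratio raised the median of all mRNAs by 0.16 on day 6 and 0.19 at 9 d vs. 0 d on the log2 scale. The share of higher calls went from 29.8% to 40.6% and from 31.3% to 46.6%. A pseudocount of 1 called 2184, 967, 888, 1688 and 368 mRNAs in the 5 comparisons, in place of 3585, 1749, 1675, 2939 and 683.

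The circRNA calls by row were less stable. At 3 d vs. 0 d 1 row was called, with DESeq2 and with at least 20 counts 0, and when libraries were left out 0 to 1. From 3 d to 6 d 2 rows were called, but 0 with DESeq2, at least 20 counts or rows within 5 bp summed, 1 with no filter or without TMM factors, and 0 to 2 when libraries were left out. The value of circRNA4383 at 6 d vs. 0 d (0.06) became -0.0203 with at least 20 counts, and ran from -4.06 to 4.09 when libraries were left out. Leaving out libraries, circRNA3406 at 9 d vs. 0 d ran from -3.27 to 4.10 and the SCP2 sum at 9 d vs. 6 d from -0.803 to 0.062. The host sum of SCP2 on day 3 was called under every alternative tried. Few reads lie behind a circRNA row, which limits these tests.

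Replicate numbers are shared between days, but same-numbered libraries did not deviate together (r of -0.0981 to 0.112 over 18 pairs, 2 of them over 0.1). With a block for the replicate number, the circRNA rows called from 3 d to 6 d went from 2 to 1, and circRNA4383 at 6 d vs. 0 d was -0.35. The block changed no other call of the 9 genes or of either host.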

Other observations

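Fibroblast markers differed widely in level and moved both ways on day 3. PDGFRA had 160 ± 10.5 FPKM on day 0, 929.5 ± 31.5 on day 3 and 162 ± 1.79 on day 6. COL1A1 had 3018 ± 111, 941 ± 57.1 and 3080 ± 98.8 FPKM on the same days, and FAP 7 ± 0.285, 0.527 ± 0.0321 and 1.78 ± 0.14 FPKM. Of 6 fibroblast markers, 3 were called higher and 2 lower on day 3, 2 and 1 at 6 d vs. 0 d, 1 and 0 at 9 d vs. 0 d, 2 and 1 from 3 d to 6 d, and 1 and 0 from 6 d to 9 d. The list summed to 115498 to 122846 FPKM on day 0, 166464 to 174267 on day 3, 129489 to 134016 on day 6 and 210945 to 224190 on day 9, with COL3A1 most abundant. Muscle markers called higher and lower were 0 and 7 on day 6 and 0 and 8 at 9 d vs. 0 d, 3 and 1 from 3 d to 6 d (5 and 1 after rescaling of the libraries), and 2 and 0 from 6 d to 9 d. Endothelial markers summed to 2.52 to 3.71 FPKM and blood and immune markers to 1.14 to 3.77 FPKM over the 12 libraries. PTPRC and HBB were listed at 0 in every library. Of 3 tested endothelial markers, led by VWF, limma called 0 at 3 d vs. 0 d, at 9 d vs. 0 d and from 6 d to 9 d (2 had an unadjusted p under 0.05 in each), 1 lower at 6 d vs. 0 d and 2 lower at 6 d vs. 3 d (1 after rescaling). Of 3 tested blood and immune markers, led by CD14, limma called CD14 and CSF1R higher at 3 d vs. 0 d, CD14 higher at 9 d vs. 0 d, CSF1R lower at 6 d vs. 3 d, and 0 at 6 d vs. 0 d and from 6 d to 9 d (1 had an unadjusted p under 0.05 in each). Of 6 proliferation genes, led by AURKB, limma called 0 in each of the 5 comparisons (3, 2, 4, 3 and 4 had an unadjusted p under 0.05).

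The split of SCP2 reads between rows with starts 1 bp apart was also seen in other circRNAs. Among 222 pairs of circRNA rows within 5 bp of each other and with at least 20 reads together, there were 1896 cases of a library with at least 2 reads, and in 1862 of them (98.2%) all reads lay in 1 of the rows. With at least 5 reads in the library this held in 749 of 778 cases (96.3%). Libraries with 1 read were not counted, since they cannot have reads in both rows. This was noticed after the values were seen, and its cause was not tested.

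Among neighbours by gene order, named after their values were seen, ECHDC2 beside SCP2 was called lower at 3 d vs. 0 d (log2 -1.02, 13.2 to 6.45 FPKM, limma adjusted p = 8.86e-07). SLC1A7 beside CPT2 was called higher (1.21) at a mean of 0.17 FPKM on day 0 and 0.52 FPKM on day 3. Circular RNA reads of the other 7 genes numbered 7 for CPT1A and 4 for HADHB.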
